A study of Sus scrofa with 12 samples.

Results

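Liver RNA of Hezuo pigs kept at -15 ± 2 °C was set against liver RNA of Hezuo pigs kept at 23 ± 2 °C, over every gene and every circular RNA (circRNA) of the deposited tables. The comparison takes the 6 libraries whose labels name the Hezuo breed, of the 12 in the study: 3 from pigs in the cold and 3 from pigs at room temperature. The liver of all of them was taken on day 15, and the labels describe the feed as balanced and the housing as ventilated for both temperatures. The remaining 6 libraries come from Bama pigs, 3 held at the cold setting and 3 at the warm setting for the same time. They entered the fit so that all groups shared the estimate of spread, and their values are given beside the Hezuo genes that passed the test. Hezuo pigs are a small breed of the cold highlands of Gansu, and Bama pigs are a dwarf breed of southern China. The labels number the pigs 1 to 3 in each group, so each library is an animal, but they give neither age nor sex and describe the tissue only as liver. The gene table holds 21169 rows, of which 13532 had enough counts to be tested. The circRNA table holds 24177 circRNAs, of which 19451 had a read in a Hezuo library and 9032 could be tested.

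When an animal draws on its fat, the liver takes up fatty acids, joins them to coenzyme A, passes them through the carnitine shuttle into mitochondria and oxidises them there, while peroxisomes shorten the very long chains. Fatty acids that are not burned are stored in lipid droplets, which are coated by perilipins and CIDE proteins. Many genes of these steps are turned on by PPARA, a nuclear receptor that binds fatty acids and acts together with RXRA. Pigs have no working UCP1, the uncoupling protein with which brown fat of other mammals makes heat. A circRNA is an exon, or several, closed into a ring, and is recognised by reads that cross its back-splice junction, where the end of an exon is joined to the start of the same exon or of one upstream of it.

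Counts assigned to genes totalled 22700370, 24237368 and 27067713 in Hezuo cold replicates 1 to 3, and 26514969, 24586116 and 22688196 in room temperature replicates 1 to 3. Back-splice counts were 42562, 40165 and 52194 in the cold libraries, against 50704, 46071 and 46941 at room temperature. The serum albumin gene ALB took 9.78%, 3.05% and 7.35% of gene counts in the cold, against 9.42%, 11.7% and 12.01% at room temperature. The summed level of the 17 rows that match 15 hepatocyte markers, as CPM (counts per 1e6 gene counts, scaled by the TMM method), was 174622, 97286 and 156638 in the cold libraries, against 189420, 199384 and 206654 at room temperature, so cold replicate 2 had the lowest hepatocyte sum of the 6. Markers of skeletal muscle, at 0.216 to 0.907 CPM, and of pancreas or gut, at 2.82 to 5.78 CPM, were near 0 in all 6. Kupffer cell or macrophage markers summed to 3596, 5562 and 3852 CPM in the cold, against 3483, 3862 and 2638 CPM. Of these 15 markers, 13 had a positive log2 fold change, against 48.4% of all genes, with a median of 0.54. At an unadjusted edgeR p below 0.05, 3 were higher and 0 lower, against 8.31% and 7.25% of all genes. None of the genes on 12 cell type marker lists was called by edgeR. The Y-linked gene DDX3Y had 1331 to 2407 counts in the 6 Hezuo libraries, whereas in Bama it had 2284 and 3769 counts in cold replicates 1 and 3 and at most 3 in the others. Erythroid markers summed to 5481, 2311 and 20968 CPM in the cold, against 4461, 14815 and 8252 CPM at room temperature. The first principal component of the 6 libraries held 38.0015% of the variance and parted the temperatures, with 6.74, 28.9 and 50.02 for cold replicates 1 to 3, against -14.2, -39.2 and -32.3 at room temperature. The libraries did not pair off by temperature, however. The highest Pearson r of log2 CPM, 0.9761, was that of cold replicate 1 with room temperature replicate 1. Room temperature replicates 1 and 3 followed with 0.9757. In whole tissue, fewer cells of a type and less RNA per cell cannot be told apart.

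At a Benjamini-Hochberg adjusted p below 0.05 in edgeR's quasi-likelihood test, 38 of 13532 genes (0.281%) changed in the Hezuo liver in the cold, 27 of them higher (0.2%) and 11 lower (0.0813%). Their adjusted p lay between 0.0214 and 0.0497. An unadjusted p below 0.05 was found for 2105 genes (15.6%), and the median log2 fold change over all genes was -0.01. The 3 cold and the 3 room temperature libraries did not overlap for any of the 38, and did not overlap for 21.8% of all genes tested. DESeq2 called 540 genes (3.99%), which include all 38. The number depends on single animals: edgeR called 0 genes without cold replicate 3 and 0 without room temperature replicate 1, where 1485 and 2059 genes had an unadjusted p below 0.05 and DESeq2 was not run. It called 2 genes without cold replicate 2, 2 without room temperature replicate 2 and 2 without room temperature replicate 3, whereas without cold replicate 1 it called 38, of which 19 were the same genes. The Bama animals bear on the number through the shared spread, with 3 genes called when Bama cold replicate 2 was left out and 20 when its replicate 1 was. Of the Bama animals at room temperature, dropping replicate 2 gave 16 genes and dropping replicate 3 gave 66. All 38 genes kept their direction in each of 21 alternative fits. Of the 27 genes that rose, 18 had their highest cold level in cold replicate 3, 5 in replicate 2 and 4 in replicate 1. Of the 11 that fell, 10 had their lowest cold level in cold replicate 3.

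**Figure D1:**
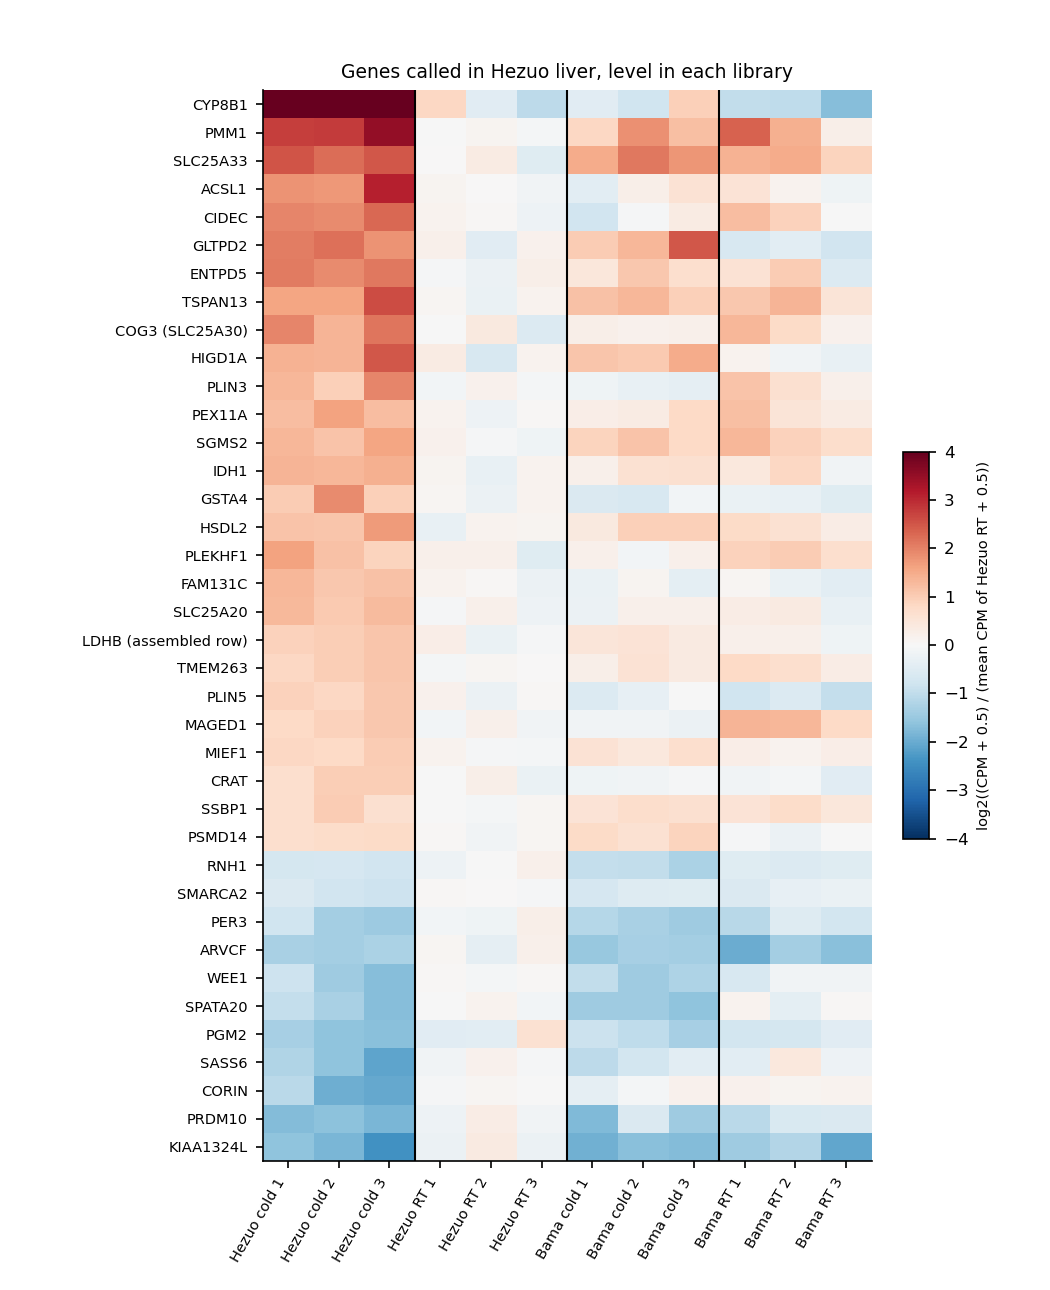
Levels of the 38 genes called in the Hezuo comparison in all 12 libraries (columns: Hezuo cold, Hezuo room temperature, Bama cold, Bama room temperature, 3 libraries each). Colour is log2 of (CPM + 0.5) over (mean CPM of the Hezuo room temperature libraries + 0.5), limited to 4 in either direction, and the 27 genes that rose and the 11 that fell in Hezuo separate fully between the 2 Hezuo groups, with the strongest colours most often in cold replicate 3.

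The genes with the best known place in fat burning belong to fatty acid activation and the carnitine shuttle, where 3 of 21 tested genes rose, against 0.2% of all genes, and none fell. ACSL1, the main liver enzyme that joins long-chain fatty acids to coenzyme A, had 2253, 2175 and 5641 CPM in the cold, against 705, 667 and 586 CPM at room temperature. Its log2 fold change was 2.36 ± 0.39 (SE, n = 3 animals a group), and 1.77 without cold replicate 3. Every cold library lay at least about 3 times above the room temperature ones, and cold replicate 3 stood well above the other cold animals. Per transcript length, ACSL1 was also the most abundant gene of its family, with 839 ± 471 FPKM in the cold and 159 ± 11.7 FPKM at room temperature (mean ± SD, n = 3). ACSL5 had 78.0 and 47.8 FPKM, ACSL3 15.8 and 10.2 FPKM, and ACSL4 6.2 and 8.26 FPKM in the cold and at room temperature, and none of these 3 passed the test, with log2 fold changes of 0.66, 0.62 and -0.44. ACSL1 was thus the only family member called.

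SLC25A20 moves acylcarnitines across the inner mitochondrial membrane. It had 64.5, 53.3 and 62.9 CPM in the cold, against 25.2, 30.1 and 22.2 CPM at room temperature, a log2 fold change of 1.22 ± 0.19. CRAT, which exchanges short acyl groups between carnitine and coenzyme A, had 197, 248 and 245 CPM in the cold, against 122.6, 145.7 and 104.2 CPM (0.89 ± 0.16). Both genes were even across the 3 cold animals. CPT1A, which makes acylcarnitines and sets the rate of entry, was at 451, 416 and 615 CPM in the cold and 176, 139 and 119 CPM at room temperature, with no overlap between the groups, but did not pass over all genes (1.77 ± 0.38, edgeR adjusted p = 0.0838; DESeq2 adjusted p = 0.00024).

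Among the enzymes of the mitochondrial beta-oxidation spiral, 0 of 21 were called by edgeR, 8 had a higher level with an unadjusted p below 0.05, against 8.31% of all genes, and DESeq2 called 5. The nearest was ETFDH, which hands the electrons of the first oxidation step to the respiratory chain, at 175, 166 and 213 CPM in the cold, against 114, 106 and 113 CPM (0.73 ± 0.14, adjusted p = 0.0555). The list's median log2 fold change was 0.31. Of 23 genes of peroxisomal oxidation and division, 1 rose, against 0.2% of all genes. It was PEX11A, which drives the growth and division of peroxisomes, with 13.8, 18.0 and 13.9 CPM in the cold, against 6.13, 4.76 and 5.84 CPM (1.45 ± 0.26). HSDL2, a peroxisomal relative of the hydroxysteroid dehydrogenases that is not on the list, rose as well, with 73.6, 71.8 and 110 CPM in the cold, against 27.1, 37.1 and 35.9 CPM (1.35 ± 0.22).

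Of 29 tested PPARA targets, 4 rose (ACSL1, SLC25A20, PEX11A and CIDEC), against 0.2% of all genes. A higher level at an unadjusted p below 0.05 was found for 15, against 8.31% of all genes. A positive log2 fold change was found for 27, where 48.4% of all genes had one. The median of the list was 0.81, against -0.01 over all genes, and it stayed between 0.71 and 0.91 when any of the 6 Hezuo animals was left out. The same 29 genes had a median of -0.02 in Bama pigs, with 0 of them called by edgeR in either direction, 2 higher and 6 lower at an unadjusted p below 0.05, against 7.78% and 8.01% of all genes. Some genes known to respond to fasting lay close to their room temperature level or varied widely. PDK4, which holds pyruvate back from oxidation, had a log2 fold change of 0.14 ± 0.38, ANGPTL4, an inhibitor of lipoprotein lipase, 0.49 ± 0.30, and the hormone FGF21 0.97 ± 1.32, and none of them passed.

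**Figure D2:**
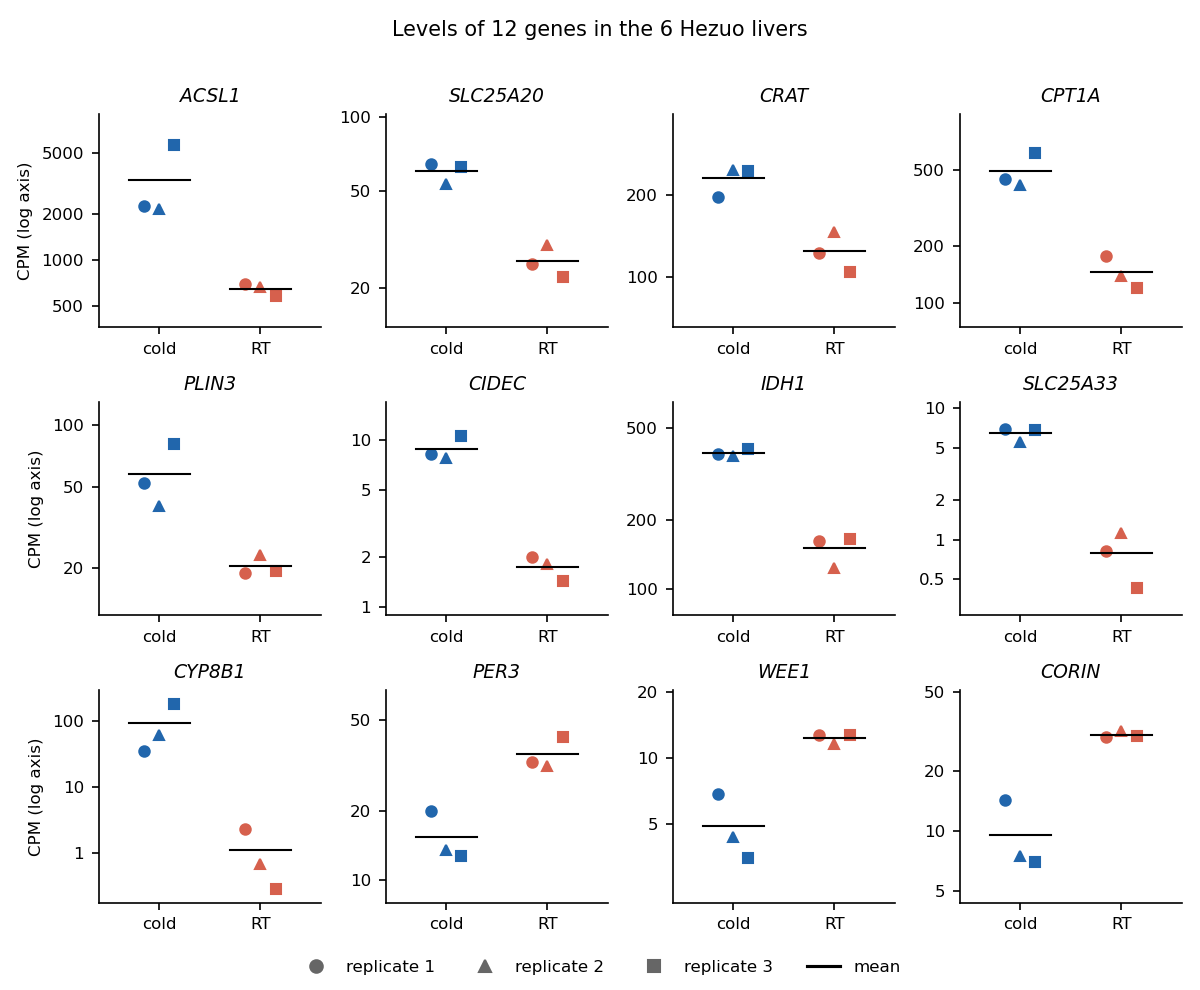
CPM on a log axis in the 3 cold and 3 room temperature Hezuo libraries for 12 genes (points are animals, marked by replicate number, and the line is the mean). The groups do not overlap for any of the 12 genes shown, and cold replicate 3 is the highest point for genes such as ACSL1, PLIN3 and CYP8B1.

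Of 22 tested genes for proteins of lipid droplets and lipolysis, 3 rose, where 0.2% of all genes did, and none fell, with a list median of 0.42. CIDEC, which fuses droplets into larger ones, had 8.22, 7.85 and 10.5 CPM in the cold, against 1.98, 1.81 and 1.43 CPM, a log2 fold change of 2.34 ± 0.40. PLIN3, a perilipin that coats nascent droplets, had 52.0, 40.1 and 81.2 CPM in the cold, against 18.8, 23.0 and 19.3 CPM (1.502 ± 0.27). PLIN5, which ties droplets to mitochondria, had 30.3, 28.7 and 34.1 CPM in the cold, against 17.9, 13.4 and 16.5 CPM (0.97 ± 0.17). The cold animals were close together for CIDEC and PLIN5, and cold replicate 3 was highest for all 3. PLIN2, the main droplet coat of hepatocytes, had 37.4, 32.6 and 79.2 CPM in the cold, against 14.2, 18.3 and 12.1 CPM, which missed the threshold (1.75 ± 0.39, adjusted p = 0.0879). Per length, PLIN2 and PLIN3 stood at 24.0 and 23.4 FPKM in the cold, against 6.91 and 8.02 FPKM at room temperature, PLIN5 at 13.8 against 6.86 FPKM, while the fat-cell perilipins PLIN1 and PLIN4 were at or below 5 FPKM in every library. Markers of adipocytes summed to 61.8, 58.6 and 44.6 CPM in the cold, against 72.3, 79.1 and 67.3 CPM at room temperature, so these were not higher in the cold.

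Several other called genes act in or on mitochondria. SLC25A33, the mitochondrial carrier of pyrimidine nucleotides, had the smallest adjusted p of all genes (0.0214), with 6.94, 5.56 and 6.82 CPM in the cold, against 0.820, 1.13 and 0.430 CPM, a log2 fold change of 3.01 ± 0.34. It was also the called gene that stayed called most often when animals were left out, in 10 of 12 cases. HIGD1A, a small inner membrane protein of the respiratory supercomplexes, had 85.1, 83.8 and 182 CPM in the cold, against 40.4, 20.6 and 35.5 CPM (1.86 ± 0.33). MIEF1, which recruits the fission protein DRP1 to mitochondria, had 29.2, 28.5 and 32.9 CPM in the cold, against 17.6, 15.6 and 15.1 CPM (0.91 ± 0.12). SSBP1, which binds single-stranded mitochondrial DNA, had 17.3, 22.2 and 16.9 CPM in the cold, against 10.6, 10.2 and 11.5 CPM (0.81 ± 0.14). These are a carrier, a membrane protein, a fission adaptor and a DNA-binding protein, and no subunit of the respiratory chain was called: of 49 nuclear subunits edgeR called 0 and DESeq2 called 2, a share near the 3.99% of all genes, while 12 had a higher level at an unadjusted p below 0.05, against 8.31% of all genes, with a median of 0.20. A row whose symbol is COG3 in the deposited table, but whose description there names the mitochondrial carrier SLC25A30, had 227, 149 and 256 CPM in the cold, against 57.7, 76.2 and 39.7 CPM (1.86 ± 0.31). The 2 genes are neighbours in the pig genome, and which of them the row measures was not tested.

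Other genes that rose encode enzymes and a lipid transfer domain protein, set together here by hand after they were called. IDH1, which makes NADPH in the cytosol and in peroxisomes, had 385, 381 and 407 CPM in the cold, against 162.1, 123.1 and 165.2 CPM (1.38 ± 0.23). ENTPD5, a nucleotidase of the endoplasmic reticulum, had 385, 334 and 391 CPM in the cold, against 88.4, 76.6 and 106 CPM (2.04 ± 0.32). PMM1, which turns mannose 6-phosphate into mannose 1-phosphate, had 27.6, 27.9 and 46.0 CPM in the cold, against 3.54, 3.90 and 3.35 CPM (3.23 ± 0.51). These 3 genes were high in every cold animal, and the room temperature animals were close to each other. GSTA4, which conjugates the lipid peroxidation product 4-hydroxynonenal, had 52.4, 94.9 and 49.3 CPM in the cold, against 26.7, 21.5 and 28.1 CPM (1.37 ± 0.24). LDHB, which turns lactate into pyruvate, is listed on more than 1 row, and an assembled row with that symbol had 23.1, 23.9 and 26.4 CPM in the cold, against 14.4, 9.84 and 11.6 CPM (1.03 ± 0.16). Levels outside that assembled row are not given here, so the rise is that of the row and not of LDHB as a whole. Among lipid enzymes, SGMS2, a sphingomyelin synthase, had 12.7, 11.1 and 15.2 CPM in the cold, against 5.48, 4.58 and 4.21 CPM (1.45 ± 0.21), and GLTPD2, a protein with a glycolipid transfer domain, had 18.4, 20.3 and 15.3 CPM, against 4.70, 2.86 and 4.64 CPM (2.15 ± 0.36).

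The gene with the largest fold change among those called was CYP8B1, the sterol 12-alpha-hydroxylase that decides how much cholic acid is made among bile acids. It had 34.98, 60.6 and 183 CPM in the cold, against 2.37, 0.680 and 0.287 CPM at room temperature, a log2 fold change of 6.35 ± 0.98 that was 5.41 without cold replicate 3 and 7.56 without room temperature replicate 1. Every cold animal was far above every room temperature animal, and the cold animals differed among themselves by about 5 times. CYP7A1, the rate-limiting enzyme of the same pathway, is given although it was chosen after its values were seen. It had 6.94, 140 and 3.80 CPM in the cold, against 23.4, 29.8 and 51.7 CPM, so only cold replicate 2 was above the room temperature animals (0.52 ± 1.06, adjusted p = 0.847). CYP8B1 was the only gene called of 21 on the bile acid list, where 0.281% of all genes were called. The median of the list was 0.05.

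The remaining genes that rose have varied roles. TSPAN13, a tetraspanin of the cell membrane, had 115, 115 and 239 CPM in the cold, against 40.9, 31.9 and 42.4 CPM (2.03 ± 0.30). PLEKHF1, a lysosomal adaptor, had 27.3, 20.3 and 16.7 CPM in the cold, against 10.01, 10.07 and 6.03 CPM (1.30 ± 0.23). PSMD14, the deubiquitinating subunit of the proteasome lid, had 22.4, 23.2 and 23.8 CPM in the cold, against 14.3, 12.6 and 14.4 CPM (0.75 ± 0.12), the tightest of the 3 across animals. FAM131C (1.26 ± 0.20), TMEM263 (0.98 ± 0.15) and MAGED1, an adaptor of the MAGE family (0.95 ± 0.16), rose too.

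Of the 11 genes that fell, PER3 and WEE1 have known ties to the circadian clock. PER3, a period protein, had 20.1, 13.6 and 12.7 CPM in the cold, against 32.7, 31.6 and 42.3 CPM at room temperature (-1.20 ± 0.21). WEE1, a kinase that delays mitosis and is driven by the clock in mouse liver, had 6.80, 4.35 and 3.47 CPM in the cold, against 12.8, 11.6 and 12.8 CPM (-1.35 ± 0.24). Cold replicate 1 was the highest of the cold animals for both. PER2 had 26.7, 15.9 and 14.1 CPM in the cold, against 39.5, 45.4 and 41.1 CPM, which missed the threshold (-1.16 ± 0.26, adjusted p = 0.0869). Over the 24 clock genes tested, 2 fell, against 0.0813% of all genes, and none rose. At an unadjusted p below 0.05, 9 were lower and 2 higher, against 7.25% and 8.31% of all genes, so the number higher was near the background. The median was -0.27. DBP, an output factor of the clock, had a log2 fold change of -1.58 ± 0.48 (adjusted p = 0.169), NR1D1, a repressor, -1.01 ± 0.73, PER1 -0.23 ± 0.32 and ARNTL, which with CLOCK forms the activator, 0.67 ± 0.28. The labels give day 15 but no hour of sampling, so the part of the time of day was not tested.

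CORIN, the protease that activates natriuretic peptides, had 14.4, 7.503 and 6.98 CPM in the cold, against 29.7, 32.03 and 30.04 CPM (-1.67 ± 0.24). ARVCF, a catenin of cell junctions, had 24.8, 23.5 and 25.1 CPM in the cold, against 65.3, 47.3 and 71.3 CPM (-1.33 ± 0.18). PRDM10, a zinc finger transcription factor, had 11.7, 12.7 and 10.9 CPM in the cold, against 34.9, 49.1 and 36.9 CPM (-1.78 ± 0.28). All 3 were lower in every cold animal by a wide margin. PGM2, which interconverts phosphopentoses, had 17.3, 13.9 and 13.3 CPM in the cold, against 31.7, 32.2 and 67.1 CPM, with room temperature replicate 3 far above the others (-1.56 ± 0.27, and -1.10 without it). SASS6, a building block of centrioles, fell with -1.65 ± 0.28 and SPATA20 with -1.39 ± 0.22. KIAA1324L, a transmembrane protein, was the least abundant of the genes that fell, at 0.951, 0.733 and 0.327 CPM in the cold, against 3.28, 5.22 and 3.25 CPM (-2.55 ± 0.45). SMARCA2, the ATPase of a chromatin remodelling complex, was at 94.1, 82.5 and 78.3 CPM in the cold, against 143, 140 and 136 CPM (-0.72 ± 0.12), and RNH1, the ribonuclease inhibitor, at 42.9, 43.8 and 41.3 CPM, against 60.9, 68.8 and 80.4 CPM (-0.71 ± 0.13). Both of these small changes were even across animals.

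Of the 38 called genes, 10 were on any of 34 pathway lists. The lists had been chosen with results of these data in view, so their counts are descriptions. Of 20 genes of fatty acid synthesis, edgeR called 0 and DESeq2 called 1 in each direction, and 6 were higher and 2 lower at an unadjusted p below 0.05. Over all genes DESeq2 called 3.99%, and 8.31% were higher and 7.25% lower at that p, so the number lower was near the background. SREBF1, which drives this pathway, had 76.1, 28.1 and 64.9 CPM in the cold, against 146, 84.1 and 270 CPM (-1.56 ± 0.52, adjusted p = 0.202), whereas ELOVL6, which lengthens palmitate, had 300, 352 and 175 CPM in the cold, against 32.1, 57.8 and 93.8 CPM (2.17 ± 0.70, adjusted p = 0.193). The synthase FASN had 248, 276 and 59.4 CPM in the cold, against 234, 147 and 628 CPM (-0.79 ± 0.72), with wide overlap. Apolipoprotein genes included APOA5, which helps lipoprotein lipase, at 794, 1029 and 2354 CPM in the cold, against 222, 203 and 113 CPM (2.96 ± 0.60, adjusted p = 0.0811). GPD1, which makes glycerol 3-phosphate and serves the shuttle of electrons into mitochondria, had 278, 202 and 281 CPM in the cold, against 95.1, 94.1 and 103 CPM (1.38 ± 0.29, adjusted p = 0.0835). The groups did not overlap for APOA5, GPD1 and ELOVL6, which were higher in the cold, or for SREBF1, which was lower. They did not overlap for AGXT and ITIH1, given below, either. Of all genes tested, 21.8% did not overlap. SCD, which makes oleate, had a log2 fold change of -0.86 ± 0.60 and did not pass. Other genes with the smallest p of their list were AGXT, which clears glyoxylate (136, 403 and 253 CPM in the cold, against 39.7, 35.3 and 51.4 CPM, 2.65 ± 0.56, adjusted p = 0.0838), and ITIH1, a plasma protease inhibitor (2736, 2321 and 2570 CPM, against 3775, 4788 and 4292 CPM, -0.75 ± 0.16, adjusted p = 0.0835).

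**Figure D3:**
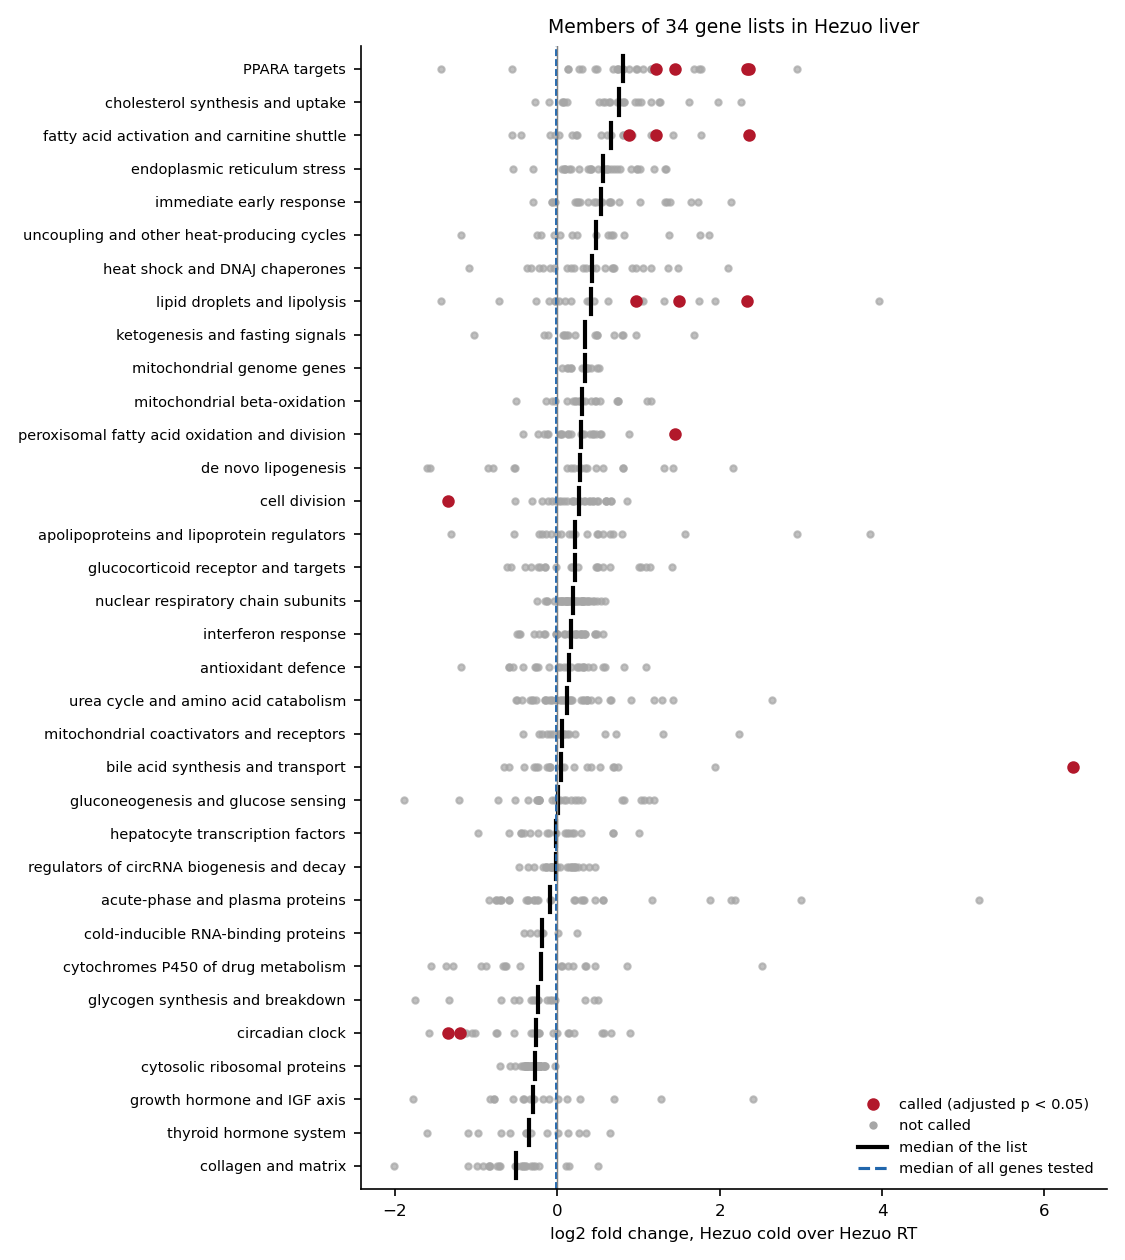
Log2 fold change, cold over room temperature in Hezuo, of every tested member of 34 pathway lists (points are genes, bars are list medians, called genes in red). PPARA targets have the highest median (0.81) and collagen and matrix the lowest (-0.50), around the median of -0.01 over all genes.

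Cholesterol synthesis and uptake had a median of 0.76, but 22 of its 25 genes had their highest level of all cold animals in cold replicate 2, and the median without that animal was 0.44. For MVK, a kinase of the mevalonate pathway and the list's gene of smallest p, levels were 129, 187 and 125 CPM in the cold, against 85.2, 45.0 and 55.3 CPM (1.25 ± 0.35, adjusted p = 0.149). Heat shock and DNAJ chaperones had a median of 0.42 and endoplasmic reticulum stress genes 0.57. Of these, 22 of 26 and 25 of 30 genes were highest in cold replicate 3, and the medians were 0.18 and 0.34 without it. HSPA8, the constitutive HSP70, had 641, 591 and 1776 CPM in the cold, against 480, 460 and 410 CPM (1.15 ± 0.40, adjusted p = 0.205). HSPA5, the HSP70 of the endoplasmic reticulum, had 254, 309 and 720 CPM, against 235, 149 and 127 CPM (1.33 ± 0.51, adjusted p = 0.248). HSPH1 had 30.3, 35.3 and 105 CPM, against 20.1, 20.2 and 20.4 CPM (1.49 ± 0.45, adjusted p = 0.171). Among the cold animals, most chaperones were thus highest in cold replicate 3. The acute-phase gene ITIH4 was highest in cold replicate 2, with 1144, 16140 and 2807 CPM in the cold, against 1922, 1730 and 887 CPM. Its list of 31 acute-phase and plasma protein genes did not share this. In that list 11 genes were highest in cold replicate 1, 11 in replicate 2 and 9 in replicate 3. edgeR called none of these genes and no other member of the lists. DESeq2 called 4 chaperones, 0 endoplasmic reticulum stress genes and 1 cholesterol gene, against 3.99% of all genes. At an unadjusted p below 0.05, 12 of 26 chaperones, 9 of 30 endoplasmic reticulum stress genes and 7 of 25 cholesterol genes were higher. Over all genes that share was 8.31%. At the same p, 1 chaperone was lower and 0 genes of the endoplasmic reticulum stress and cholesterol lists.

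Genes of the matrix and of growth were lower on balance. Of 25 collagen and matrix genes, edgeR called 0 and DESeq2 2, 9 were lower and 0 higher at an unadjusted p below 0.05, against 7.25% of all genes lower, and the median was -0.50. COL1A1 had 290, 171 and 140 CPM in the cold, against 285, 597 and 313 CPM (-0.99 ± 0.47), and COL3A1 had 699, 452 and 369 CPM in the cold, against 734, 1220 and 761 CPM (-0.84 ± 0.32, adjusted p = 0.244). Markers of stellate or mesenchymal cells, the liver cells that make collagen, summed to 1800, 1350 and 1225 CPM in the cold, against 1978, 3045 and 1970 CPM at room temperature, and 13 of 15 of them were below 0, and the list shares collagen genes with the matrix list. The part of that cell type in the matrix values was not tested. All 57 cytosolic ribosomal protein genes had a negative log2 fold change, between -0.70 and -0.02 with a median of -0.28. edgeR and DESeq2 called 0 of them, and 10 were lower at an unadjusted p below 0.05, against 7.25% of all genes. The median of this list was -0.14 without cold replicate 2, in which 51 of the 57 genes had their lowest cold level. In the growth hormone and IGF axis, 7 of 18 genes were lower at an unadjusted p below 0.05, against 7.25% of all genes. edgeR called 0 and DESeq2 2, where DESeq2 called 3.99% of all genes. IGFALS, the list's gene of smallest p, had 100, 99.2 and 78.8 CPM in the cold, against 155, 138 and 185 CPM (-0.78 ± 0.21, edgeR adjusted p = 0.129). IGF1 itself had 45.3, 41.1 and 43.3 CPM in the cold, against 54.3, 38.7 and 52.8 CPM (-0.17 ± 0.19, adjusted p = 0.7).

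Other programs often linked to cold held no gene called by edgeR, which called 0.281% of all genes. Over all genes, DESeq2 called 3.99%, and 8.31% were higher and 7.25% lower at an unadjusted p below 0.05. UCP2, a mitochondrial carrier, had 21.1, 28.2 and 27.3 CPM in the cold, against 18.1, 37.4 and 23.3 CPM (-0.04 ± 0.35). Among 15 genes of uncoupling and other heat-producing cycles, DESeq2 called 4, all higher, and the median was 0.48. At an unadjusted p below 0.05, 6 of them were higher and 1 lower. The deiodinase DIO1, which activates thyroid hormone, had a log2 fold change of 0.35 ± 0.31. Among 14 genes of the thyroid hormone system, DESeq2 called 0, and the median was -0.35. At an unadjusted p below 0.05, 1 of them was higher and 3 lower. Of 7 cold-inducible RNA-binding protein genes, 0 had an unadjusted p below 0.05 and neither edgeR nor DESeq2 called any, with a median of -0.19. In gluconeogenesis, PCK1 was at 4596, 1845 and 3312 CPM in the cold, against 4342, 3293 and 524 CPM (0.26 ± 0.64). G6PC was at 2830, 1986 and 1248 CPM, against 1244, 1212 and 502 CPM (1.04 ± 0.59). Of 27 genes of gluconeogenesis and glucose sensing, edgeR called 0 and DESeq2 2, with a median of 0.01. At an unadjusted p below 0.05, 3 of the 27 were higher and 5 lower. FKBP5, a target of the glucocorticoid receptor, had 49.5, 87.4 and 118 CPM in the cold, against 50.5, 31.7 and 37.5 CPM (1.09 ± 0.32, adjusted p = 0.158). Interferon response genes had 0 of 32 members at an unadjusted p below 0.05, with no call by edgeR or DESeq2 and a median of 0.17.

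The 38 genes were then read in the Bama libraries, which share no animal with the Hezuo comparison. Since they were chosen on the Hezuo side, a smaller response in Bama is a description. DDX3Y was present in 2 of the 3 Bama cold libraries and near 0 in all 3 at room temperature, so in Bama temperature and Y-linked RNA are partly mixed, in the Bama response as in the breed difference. Of the 27 that rose in Hezuo, 15 had a positive and 12 a negative log2 fold change in Bama, with a median of 0.05 there and 1.38 in Hezuo. Of the 11 that fell, 10 were negative in Bama, with medians of -0.44 in Bama and -1.39 in Hezuo. The exception was ARVCF, with 21.0, 24.0 and 23.4 CPM in Bama in the cold, against 15.1, 23.6 and 18.8 CPM (0.25 ± 0.18). edgeR called 3 of the 38 in Bama in the same direction, where it called 0.924% of all genes. These were PSMD14 (0.88 ± 0.12, adjusted p = 0.00967), GLTPD2 (2.56 ± 0.37, adjusted p = 0.0109) and SPATA20 (-1.56 ± 0.22, adjusted p = 0.0107). Their Bama fold changes were close to those in Hezuo. With a term for Y-linked RNA in the fit, their Bama log2 fold changes were 0.72 ± 0.16, 2.12 ± 0.44 and -1.48 ± 0.35, and none was called (edgeR adjusted p = 0.412, 0.379 and 0.48). Without Bama room temperature replicate 3 GLTPD2 (2.47, adjusted p = 0.071) and SPATA20 (-1.50, adjusted p = 0.0512) were not called, nor was SPATA20 without Bama cold replicate 3 (-1.49, adjusted p = 0.0516).

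ACSL1 had 486, 770 and 969 CPM in Bama in the cold, against 950, 723 and 576 CPM at room temperature, a log2 fold change of -0.02 ± 0.37. SLC25A20 had -0.08 ± 0.19 and CRAT 0.10 ± 0.16 in Bama, and the droplet genes CIDEC and PLIN3 had -1.07 ± 0.39 and -1.01 ± 0.27. A breed difference in response did not pass for any of them (adjusted p = 0.2 for ACSL1, 0.177 for SLC25A20, 0.353 for CRAT, 0.0798 for CIDEC and 0.07 for PLIN3). MAGED1 was the single gene of the 13532 whose response differed between the breeds at an adjusted p below 0.05 (0.00739%). It had 64.0, 70.1 and 78.6 CPM in Hezuo in the cold, against 34.3, 42.4 and 33.6 CPM at room temperature. In Bama it had 33.2, 33.2 and 31.5 CPM in the cold, against 95.6, 93.7 and 63.6 CPM, so it moved in opposite directions in the 2 breeds (difference 2.32 ± 0.23, edgeR adjusted p = 0.00512). It stayed called without any 1 of the 12 animals, but with a term for Y-linked RNA the difference was 2.29 ± 0.32 and was not called (edgeR adjusted p = 0.225). At room temperature, the Bama mean was above the Hezuo mean for 19 of the 27 genes that rose and below it for 10 of the 11 that fell. The Hezuo room temperature levels entered the choice of these genes, so these counts are a description.

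**Figure D4:**
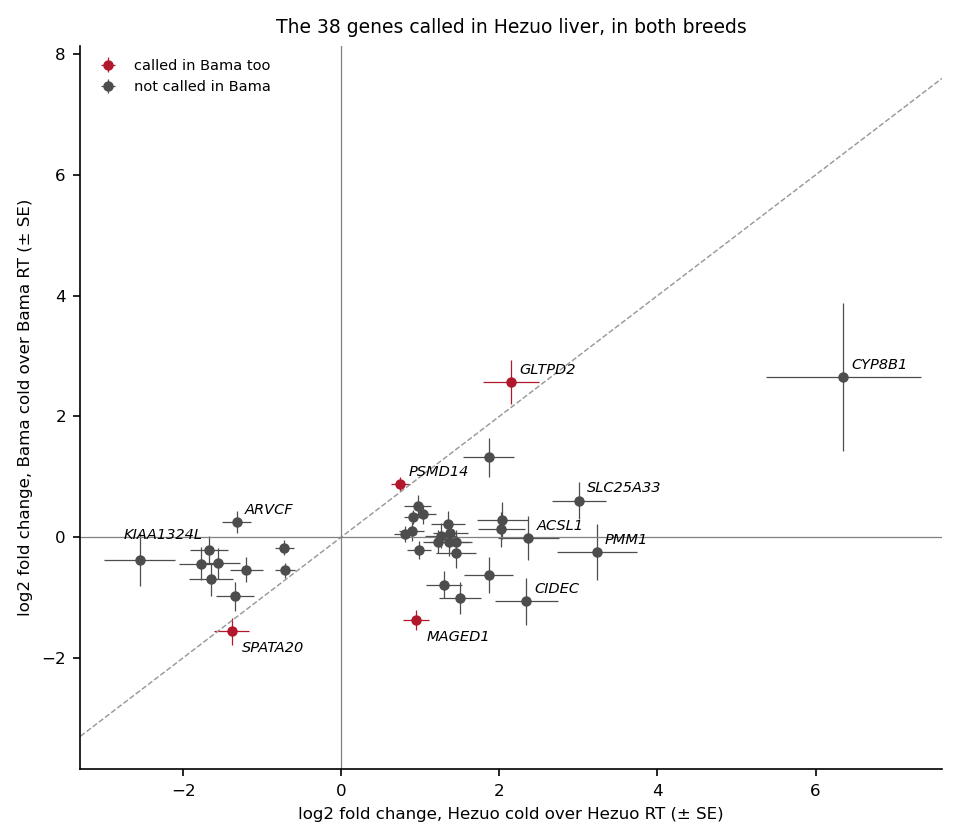
Log2 fold change in the cold (± SE) of the 38 genes in Hezuo and in Bama. Genes that rose in Hezuo spread around 0 in Bama (median 0.05), PSMD14, GLTPD2 and SPATA20 have like values in both, and MAGED1 has opposite signs.

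Back-splice reads came to 1875, 1657 and 1928 per 1e6 gene counts in the cold Hezuo libraries, against 1912, 1874 and 2069 at room temperature. The means were 1820 ± 144 in the cold and 1952 ± 103 at room temperature (SD, n = 3), a difference of -132 that was within the spread between animals (two-sided exact permutation p = 0.5, where 0.1 is the smallest possible). With mitochondrial genes and the 10 most abundant genes left out of the denominator, the values were 2436, 2046 and 2437 in the cold, against 2550, 2554 and 2740 at room temperature. That difference of -308 left no overlap between the groups, and its exact permutation p of 0.1 is the smallest that 3 animals a group allow. Of 9032 circRNAs, edgeR called 8 (0.0886%), 5 higher (0.0554%) and 3 lower (0.0332%), with 523 at an unadjusted p below 0.05 (5.79%) and 3 called by DESeq2, of which 2 were the same. For 5 of the 8 the cold and room temperature libraries did not overlap once reads were scaled for depth, as for 8.59% of all circRNAs tested. The count was 2 without cold replicate 2, 2 without room temperature replicate 3, 5 without room temperature replicate 2 and 16 without cold replicate 1. Positions are those of the deposited circRNA table, whose genome build is not given in the sources used here, and intervals below cover counting error only.

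Both tools called novel_circ_006052 and novel_circ_022008. By edgeR, 3 circRNAs had a smaller adjusted p than novel_circ_006052, which is made of annotated exons of AKR1D1, the steroid 5-beta-reductase that acts in bile acid synthesis (chr18:11436848-11447863, minus strand, 486 bases when spliced). It had 84, 47 and 102 reads in the cold, against 207, 160 and 207 at room temperature, a log2 fold change of -1.23 ± 0.25 (edgeR adjusted p = 0.00154; DESeq2 adjusted p = 0.000369). It fell by nearly the same amount in Bama pigs (-1.19 ± 0.25, adjusted p = 0.00118), where 0.155% of circRNAs were called. Summed over the 13 AKR1D1 circRNAs counted by host, back-splice reads were 137, 85 and 161 in the cold, against 336, 243 and 282 at room temperature (-1.03 ± 0.21, adjusted p = 0.0168), and -1.004 ± 0.21 in Bama (adjusted p = 0.00421), where 1.86% of hosts were called, though not without Bama cold replicate 3 (-0.82, adjusted p = 0.0724). The AKR1D1 gene had 1034, 998 and 1004 CPM in the cold, against 1201, 984 and 1528 CPM (-0.29 ± 0.19, adjusted p = 0.483), so the gene's groups overlapped and those of its circRNAs did not. Of the 12 AKR1D1 circRNAs tested, 6 share the same upper coordinate, 11447863, and all 6 had a negative log2 fold change. So did 4 of the 6 that do not share it. The 6 with this coordinate held 120, 80 and 141 reads in the cold, against 309, 234 and 256 at room temperature.

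RXRA, the partner receptor of PPARA, was the other host called among 1397 (2 called, 0.143%, of which 1 higher and 1 lower, 0.0716% each, with 92 at an unadjusted p below 0.05, or 6.59%, and 3 called by DESeq2). Its back-splice reads were 75, 54 and 53 in the cold, against 32, 21 and 29 at room temperature (1.31 ± 0.29, adjusted p = 0.034), whereas its gene had 268, 249 and 224 CPM in the cold, against 293, 229 and 289 CPM (-0.13 ± 0.13, adjusted p = 0.659). Nearly all of these reads belong to novel_circ_008874 (chr1:273771031-273777030), with 75, 50 and 53 reads in the cold, against 32, 21 and 29. In Bama the RXRA sum had 51, 70 and 44 reads in the cold, against 53, 51 and 52 (0.52 ± 0.28, adjusted p = 0.493). The number of hosts called was 0 without room temperature replicate 1 and 0 without room temperature replicate 3, by edgeR, with 110 and 94 at an unadjusted p below 0.05. It was 1 without room temperature replicate 2, 1 without cold replicate 2 and 6 without cold replicate 1. The next hosts by p, none of them called, included VWA8 with 68, 80 and 103 reads in the cold, against 54, 56 and 36 (0.93, adjusted p = 0.241). Where back-splice counts were scaled by the gene table, RXRA was no longer called and AKR1D1 was the 1 host left.

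**Figure D5:**
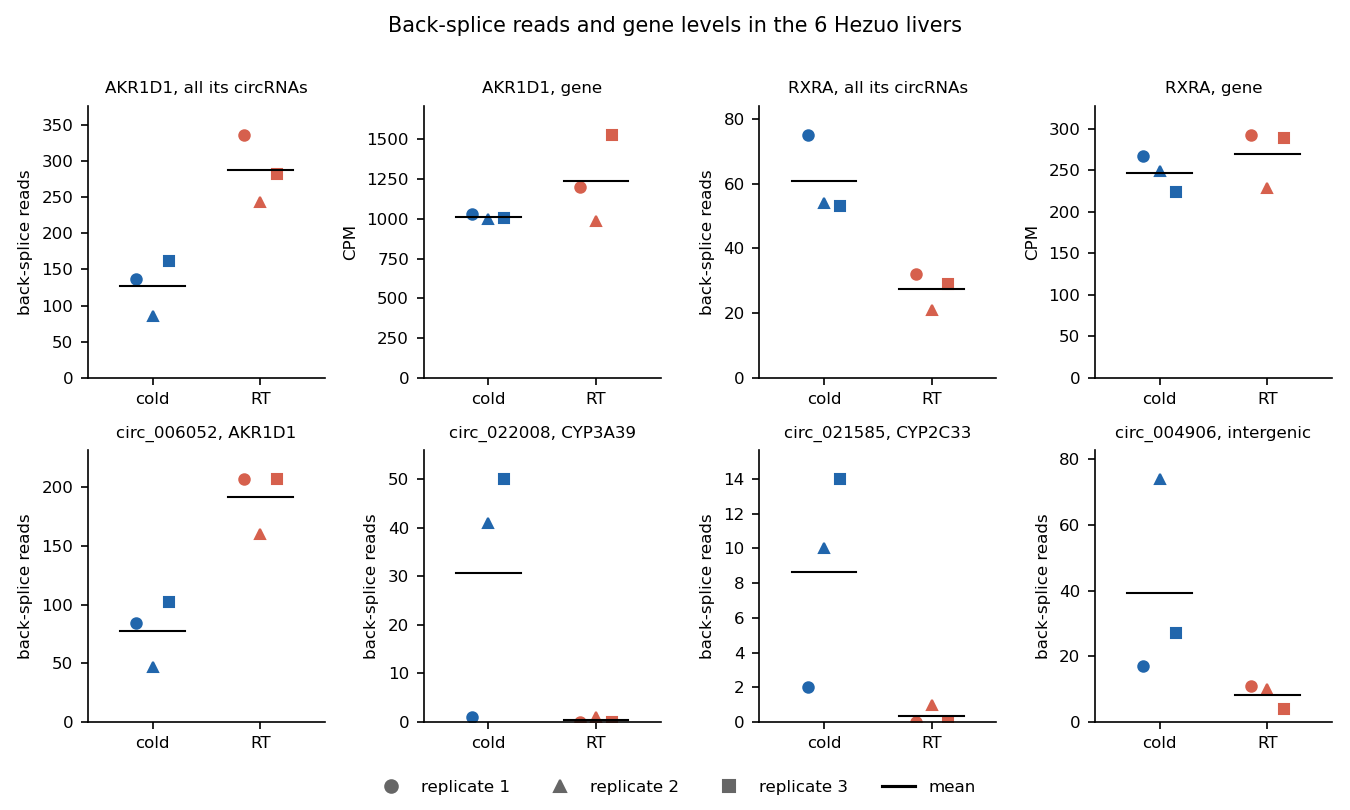
Back-splice reads and gene CPM in the 6 Hezuo libraries for the hosts AKR1D1 and RXRA, and back-splice reads of novel_circ_006052, novel_circ_022008, novel_circ_021585 and novel_circ_004906 (points are animals, cold left of room temperature). AKR1D1 reads fall and RXRA reads rise with no overlap while the CPM of both genes overlap, and novel_circ_022008 is high in 2 of 3 cold animals.

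The other called circRNAs were uneven across animals. novel_circ_022008 of the drug-metabolising gene CYP3A39 (chr3:6746550-6758714, plus strand) had 1, 41 and 50 reads in the cold, against 0, 1 and 0 at room temperature. Per back-splice read the ratio of the sums was 98.0, with a 95% interval of 17.2 to 3912. The adjusted p was 1.25e-08 by edgeR and 0.0357 by DESeq2. In Bama the direction was the opposite, with 1, 1 and 0 reads in the cold, against 5, 28 and 7 at room temperature. novel_circ_008738 of the same gene (chr3:6651530-6660663) had 2, 0 and 2 reads in the cold, against 6, 54 and 2 (-3.80 ± 0.75), with most of the room temperature reads in replicate 2. CYP3A39 itself had 5583, 3019 and 4654 CPM in the cold, against 8234, 7791 and 9338 CPM (-0.94 ± 0.24, adjusted p = 0.12). Of its 11 circRNAs tested, 6 had negative and 5 positive log2 fold changes. novel_circ_021585, assigned to exons and introns of CYP2C33 (chr14:111253510-111282469, minus strand), had 2, 10 and 14 reads in the cold, against 0, 1 and 0, a ratio of 27.7 (95% interval 4.55 to 1135). CYP3A and CYP2C genes lie in clusters of near-identical copies, so the assignment of these back-splice reads to a copy is uncertain.

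novel_circ_010221 of ITIH4, an acute-phase protein, had 7, 45 and 14 reads in the cold, against 8, 5 and 1 (2.37 ± 0.53, adjusted p = 0.0117), highest in the animal with the highest ITIH4 gene level, cold replicate 2. Both intergenic circRNAs that were called lie close together on chromosome 6. novel_circ_004906 (chr6:14926250-14926563, minus strand) had 17, 74 and 27 reads in the cold, against 11, 10 and 4 (2.38 ± 0.45, adjusted p = 0.000664), and novel_circ_001497 (chr6:14931077-14937268) had 3, 31 and 0, against 0, 2 and 1, a ratio of 12.1 (95% interval 3.80 to 61.4). Cold replicate 2 was the highest for all 3 of these circRNAs. The deposited table lists 8 circRNAs in this stretch of chromosome 6, and the novel_circ_004906 reads were also higher in Bama in the cold, with 36, 35 and 12 against 13, 15 and 6 (1.67 ± 0.44, adjusted p = 0.0737). novel_circ_019213 of the zinc finger gene ZNF644 (chr4:125780952-125783720) had 10, 3 and 6 reads in the cold, against 29, 19 and 40 (-2.10 ± 0.51, adjusted p = 0.0464), with the gene at 43.2, 45.2 and 46.5 CPM in the cold, against 42.6, 44.5 and 54.7 CPM. The ZNF644 circRNA was lower in every cold animal while its gene was nearly level.

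Of the 38 called genes, 18 had any circRNA listed and 8 had enough reads to be tested as hosts, where edgeR called 0 and PRDM10 alone had an unadjusted p below 0.05. Back-splice reads and gene had a log2 fold change of the same sign for 7 of these 8, IDH1 being the exception. PRDM10 had 4, 2 and 6 reads in the cold, against 12, 15 and 12 (-1.55 ± 0.60, adjusted p = 0.567), and TSPAN13 had 4, 11 and 12, against 7, 2 and 5 (1.08 ± 0.62). COG3 had a back-splice log2 fold change of 0.35 ± 0.33, HSDL2 0.45 ± 0.53 and PER3 -0.10 ± 0.63. ACSL1 back-splice reads were 15, 13 and 30 in the cold, against 16, 12 and 9 (0.77 ± 0.50), while its gene rose by 2.36. IDH1 had 6, 5 and 8 reads in the cold, against 11, 7 and 5 (-0.12 ± 0.57), while its gene rose by 1.38. CORIN had 28, 23 and 13 reads in the cold, against 26, 32 and 21 (-0.13 ± 0.35), while its gene fell by 1.67. Over 1387 hosts, the log2 fold changes of back-splice reads and of genes had a Pearson r of 0.255 and a Spearman rho of 0.260, given as a description since hosts share the same 6 libraries.

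Back-splice reads were also fitted relative to the counts of the host gene, a fit added after the values had been seen. It called 3 of 1387 hosts (0.216%), with 101 at an unadjusted p below 0.05. RXRA had 13.3, 9.35 and 9.66 back-splice reads per 1000 gene counts in the cold, against 4.72, 4.16 and 4.80 at room temperature (1.44 ± 0.30, edgeR adjusted p = 0.0242). ATP10D, a lipid flippase, had 14.2, 4.76 and 4.10 per 1000 in the cold, against 58.0046, 24.3 and 43.2 (-2.46 ± 0.57, adjusted p = 0.0469), from only 5, 5 and 5 reads in the cold, against 25, 11 and 18. CORIN had 92.7, 132 and 76.0 per 1000 in the cold, against 37.8, 45.3 and 33.4 (1.51 ± 0.36, adjusted p = 0.0469). CORIN had been called as a gene and its counts are the denominator here, so its ratio is a description. AKR1D1 did not pass in this fit, with 6.30, 3.67 and 6.54 per 1000 in the cold, against 12.1, 11.2 and 8.83 (-0.77 ± 0.23, adjusted p = 0.352). The difference between the breeds in these ratios passed for none of the 3 hosts called (edgeR adjusted p = 0.638 for each).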

How the data were processed

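Liver total RNA, depleted of ribosomal RNA and made into strand-marked libraries per the labels' protocols, was sequenced from 12 pigs. The submitters' processing notes name fastp. Aligner, circRNA caller and build: not given in the sources used here. The authors deposited an estimated count per gene, which is not always whole, with FPKM beside it, and a back-splice count per circRNA with RPM beside it. Estimated counts were rounded to whole numbers. FPKM was used only to compare levels between genes, and RPM was not tested. Genes were filtered with filterByExpr (minimum count 10, total 15), and circRNAs needed 2 counts in 3 libraries and 10 in all. The main test was edgeR 4.0.16 (R 4.3.3), robust quasi-likelihood with TMM scaling over 4 groups and 12 libraries, with Benjamini-Hochberg adjustment over all features at 0.05. SEs are the log2 fold change over the square root of F. DESeq2 1.42.0 was an alternative. The main edgeR fits of genes, circRNAs and hosts were run on simulated counts with changes put into the Hezuo cold libraries. At a log2 change of 1 they recovered 44% of the changed genes, 0% of circRNAs and 18% of hosts. At a log2 change of 2 they recovered 85%, 9% and 70%. The DESeq2 fit and the other alternatives were not simulated. Alternatives were leaving out each animal, other scaling and filters, Hezuo libraries alone, a term for Y-linked RNA and a replicate block. Named were called genes, key genes (some of which are not reported here), the member of smallest p of each list, and called circRNAs and hosts. Other genes in the text, such as ACSL3, ACSL4, ACSL5, PLIN1 and PLIN4, were chosen after their values were seen. The members and the lists were chosen with earlier results of these data known.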

Additional observations from a re-analysis of the deposited data

Results flagged for a closer look

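MAGED1 is given again because its response to cold differed between the breeds by 2.32 ± 0.23 on the log2 scale, with 0.95 ± 0.16 in Hezuo and -1.37 ± 0.16 in Bama pigs (edgeR interaction term, adjusted p = 0.00512). With a term for Y-linked RNA, which differs between the Bama groups, it was 2.29 ± 0.32 and was not called (adjusted p = 0.225). The response of novel_circ_022008 of CYP3A39 differed by 9.99 ± 1.21 (adjusted p = 3.3e-12 by edgeR and 0.00195 by DESeq2). It had 1, 41 and 50 reads in Hezuo in the cold, against 0, 1 and 0, and 1, 1 and 0 reads in Bama in the cold, against 5, 28 and 7. Under the stricter filter this difference was not called (edgeR adjusted p = 0.193). The response of novel_circ_021585 of CYP2C33 differed by 5.06 ± 1.21 (edgeR adjusted p = 0.0314), with 2, 10 and 14 reads in Hezuo in the cold, against 0, 1 and 0, and 7, 21 and 0 reads in Bama in the cold, against 24, 25 and 7. The difference for novel_circ_021585 was called in 4 of 12 fits that each left out an animal (4.53 to 7.03, adjusted p 0.0046 to 0.366) and not by DESeq2. The fit with Y-linked RNA was not run for circRNAs. The fitted sizes of both circRNAs depend on groups with 1 read.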

How the results depend on the processing

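The 38 genes kept their direction in all 21 alternative fits, but their number did not hold: DESeq2 called 540, Hezuo libraries alone 60, a term for Y-linked RNA 3, the replicate block 1, and leaving out each animal in turn 0 to 66. The circRNAs called numbered 3 with DESeq2, 5 without a filter, 4 with the replicate block, 5 when scaled by gene counts and 1 under a stricter filter, and 2 to 16 when each animal was left out. The hosts called numbered 1 with Hezuo libraries alone, 4 without a filter, 1 when scaled by gene counts, and 0 to 6 when each animal was left out. The causes of these changes in number were not tested. The Y-linked RNA term was set by whether a library had more than 100 DDX3Y counts. Every Hezuo library did, with 1331 to 2407, so the term took the same value throughout Hezuo. Scaling by gene counts moved the median of all circRNAs to -0.12 and of all hosts to -0.17. The deviations of animals with the same number had correlations of -0.083, 0.0787 and -0.0142 in Hezuo and 0.138, 0.148 and 0.0223 in Bama. For animals with different numbers they were -0.0892 to 0.111 in Hezuo and -0.155 to 0.00822 in Bama. The same-number values lay within that range in Hezuo but above it in Bama. The labels do not say that equal numbers pair animals, and the main fit did not take them as pairs. The cause of the Bama values was not tested. Low back-splice counts limit the circRNA results.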
